A study of Mus musculus with 6 samples.

Results

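The subject of this report is a set of 9 genes known as markers of the pyramidal cells of hippocampal fields CA1 and CA3, followed in the hippocampus of 5xFAD and wild-type (WT) mice. The members were taken by gene name, as 6 CA1 markers (Wfs1, Fibcd1, Mpped1, Pou3f1, Nov and Spink8) and 3 CA3 markers (Bok, Iyd and Cpne4). The count table held 17385 genes, and all 9 members passed the filter on low counts. Whole hippocampus of 3-month-old mice was sequenced as rRNA-depleted RNA, with 1 library from each of 3 5xFAD and 3 WT samples. The 5xFAD mouse carries mutant human transgenes of familial Alzheimer's disease, including APP, driven by the mouse Thy1 promoter, which is active in neurons, and the WT mice lack them. Mice were perfused with buffered saline, and the labels give no treatment for either group. The sources used here do not tie the samples to named mice, so p-values measure the spread between these samples. The question was whether pyramidal cell mRNAs of young 5xFAD mice depart from those of WT mice.

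Information entering the hippocampus passes from granule cells of the dentate gyrus to pyramidal cells of CA3, and from there to pyramidal cells of CA1. Each field has its own transcription programme, so that in a whole-hippocampus library the level of a field marker reflects both the amount of RNA from that field and the expression of the gene within it. Fewer cells of a type, less RNA per cell and a different share of a field in the dissected piece cannot be told apart in bulk tissue.

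Of the 6 CA1 markers 2 fell in 5xFAD hippocampi, and none of the 3 CA3 markers passed the test. Counts were scaled to CPM, the usual counts-per-library scale, with the effective library size from TMM. The summed level of the 6 CA1 markers was 619, 611 and 598 CPM in 5xFAD replicates 1 to 3, against 843, 833 and 853 CPM in WT replicates 1 to 3. Every 5xFAD library lay below every WT library, by many times the spread of the sum in either group. Some members spread more than the sum in 5xFAD. Fibcd1 ran from 70.2 to 137 CPM, Wfs1 from 87.0 to 133 CPM and Nov from 111 to 168 CPM. A term for base composition and transcript length, described below, made the 5xFAD libraries less alike. With it, the mean log2 level minus that of WT was -0.35, -0.18 and -0.49 in 5xFAD replicates 1 to 3. Without it these were -0.46, -0.49 and -0.51. WT spanned -0.03 to 0.02 with the term. The summed level of the 3 CA3 markers was 196, 191 and 203 CPM in 5xFAD, against 176, 180 and 184 CPM in WT, and most of that sum came from Cpne4. By edgeR's quasi-likelihood test with Benjamini-Hochberg adjustment over 13937 genes, 2 of the 9 members fell, Pou3f1 and Mpped1, and none rose, while 6 had an unadjusted p under 0.05. DESeq2 and the edgeR exact test, which called more genes over the whole table, each called 4 CA1 markers lower, Fibcd1 and Spink8 beside these, and no CA3 marker. Of all genes, 1.26% were called lower by DESeq2 and 1.47% by the exact test. By the quasi-likelihood test 0.761% of all genes passed an adjusted p of 0.05, and 0.0933% passed and were lower in 5xFAD. Many more genes met the same cutoff before adjustment. Nov, the last member to do so, held rank 2473 by adjusted p among the 13937 genes. The adjustment keeps the order of the p-values, so genes ranked ahead of Nov met that cutoff too. About 2473 or more of the 13937 genes thus met it, and the exact share was not taken. Counts by unadjusted p, here and in the lists below, are to be read against that background and are not calls. The log2 fold change of 5xFAD over WT was below 0 for 8 of 9 members, against 50.9% of all genes. The median was -0.40 for the members and -0.01 for all genes. The members were chosen with earlier results of these data known, so these values are no test of the set. The median of all genes also varied with base composition, from -0.09 to -0.34 in bands above 50% G and C bases and from 0.07 to 0.29 in bands below. The median was -0.50 for the CA1 markers and -0.13 for the CA3 markers. The groups did not overlap for 4 members that were lower in 5xFAD and for Cpne4, which was higher, against 15.1% of all genes lower and 13.2% higher without overlap.

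Total counts were 21387867, 18997677 and 23873280 in 5xFAD and 21440700 to 22132716 in WT. In 5xFAD replicates 1 and 2, but not in 5xFAD replicate 3, transcripts rich in G and C bases (GC) had lower counts than in WT and transcripts poor in GC had higher counts. Across genes, Spearman's rho of transcript GC content with the difference of each library from the WT average was -0.537, -0.672 and -0.074 in 5xFAD replicates 1 to 3, and between -0.059 and 0.065 in WT. In 5xFAD replicate 2 the median deviation went down from 0.52 on the log2 scale for transcripts of up to 40% GC to -0.71 for those above 60% GC. The members span this range, so each is given below with all libraries, with a GC and length term fitted per library, and with 5xFAD replicate 3 alone set against WT. In that last fit the lone 5xFAD library is assumed to vary like the WT libraries, and the SE rests on WT spread alone. Chi-square per gene between 2 libraries, a measure of how far their counts differ, was 21.93 to 90.03 within 5xFAD and 3.95 to 10.61 within WT. Fold changes of that fit are therefore given without a test.

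Base composition sets the members apart. Transcript GC content was 63.9% for Pou3f1, 61.0% for Bok, 59.4% for Fibcd1, 57.8% for Wfs1, 53.7% for Mpped1, 46.5% for Cpne4, 46.0% for Spink8, 45.7% for Iyd and 44.8% for Nov. The first 120 coding bases are shown for the most GC-rich and the most GC-poor CA1 markers that the results turn on, and for Bok, whose level varied most, from GENCODE M21 (GRCm38, 5′ to 3′, CpG dinucleotides in capitals).
Pou3f1: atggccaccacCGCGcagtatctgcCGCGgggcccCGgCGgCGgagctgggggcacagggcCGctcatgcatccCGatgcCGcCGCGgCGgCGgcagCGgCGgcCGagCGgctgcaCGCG
Bok: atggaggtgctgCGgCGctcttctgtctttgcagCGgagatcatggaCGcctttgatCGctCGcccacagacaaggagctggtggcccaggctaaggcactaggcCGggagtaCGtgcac
Nov: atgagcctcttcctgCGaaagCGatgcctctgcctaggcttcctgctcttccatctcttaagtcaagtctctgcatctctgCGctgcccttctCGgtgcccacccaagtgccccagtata
Spink8: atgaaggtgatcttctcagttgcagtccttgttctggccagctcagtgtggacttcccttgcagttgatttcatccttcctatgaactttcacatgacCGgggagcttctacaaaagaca
The Pou3f1 stretch is 80.0% GC with 20 CpG, that of Bok 61.7% with 8, that of Nov 55.8% with 4 and that of Spink8 46.7% with 1. Over the whole coding sequence, Pou3f1 has 12.5 CpG per 100 bases, against 6.1 in Bok, 4.43 in Nov and 1.59 in Spink8.

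Levels can be compared between genes only per length, as CPM per kilobase of transcript. Mpped1 was the highest member, with 60.7 ± 3.48 CPM per kb in 5xFAD and 84.3 ± 1.83 in WT (SD, n = 3 each). Nov had 48.5 ± 9.95 in 5xFAD and 61.4 ± 3.41 in WT, and Cpne4 had 42.8 ± 2.28 in 5xFAD and 36.5 ± 0.805 in WT. Iyd was the lowest, with 1.88 ± 0.48 in 5xFAD and 2.07 ± 0.264 in WT. Below Cpne4 the order in 5xFAD was Wfs1 (29.4), Fibcd1 (22.2), Bok (16.5), Pou3f1 (11.9) and Spink8 (10.9). In WT, Cpne4, Fibcd1 (36.5) and Wfs1 (36.3) had overlapping ranges, followed by Bok (22.0), Pou3f1 (17.3) and Spink8 (15.6). Neighbours in the 5xFAD order overlapped except Cpne4 with Wfs1 and Spink8 with Iyd, and in WT only the 3 genes just named overlapped.

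**Figure D1:**
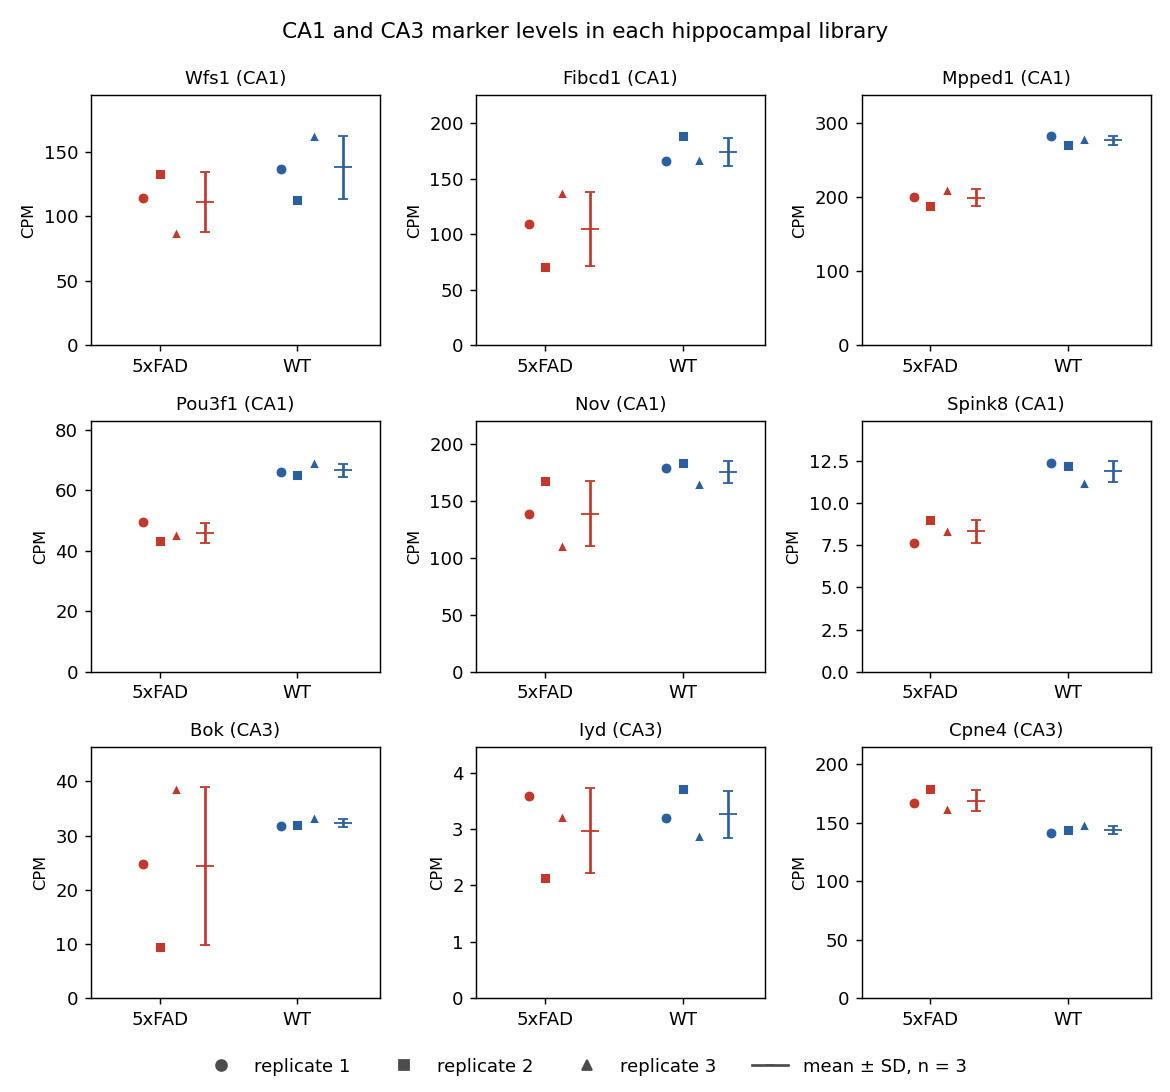
Level of each marker in CPM (vertical axes start at 0 and differ between panels) in the 3 5xFAD libraries and the 3 WT libraries. Points are libraries, and bars show the mean ± SD of 3 libraries. Mpped1, Pou3f1, Fibcd1 and Spink8 were lower in every 5xFAD library than in every WT library, Cpne4 was higher, and the spread of Bok in 5xFAD ran from 9.46 to 38.6 CPM.

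Among CA1 markers, Pou3f1 encodes a POU-domain transcription factor. Its gene is a single exon on chromosome 4 (ENSMUSG00000090125, 124656807 to 124660655, plus strand, GRCm38), and 363 of its bases lie under an antisense gene, Gm2164. Pou3f1 had 49.5, 43.1 and 45.2 CPM in 5xFAD, against 66.0, 65.0 and 69.2 CPM in WT. The groups were well apart, with all 3 5xFAD libraries close to one another. Pou3f1 fell by 0.54 on the log2 scale (SE 0.09, edgeR adjusted p = 0.0423). Once the GC and length term was fitted, the fold change was -0.06 (SE 0.16, adjusted p = 0.851), and levels under the term were 55.0, 68.9 and 41.0 CPM in 5xFAD, against 55.9, 55.9 and 59.0 CPM in WT, so that 5xFAD replicate 2 lay above WT, replicate 1 just below it and replicate 3 well below it. With 5xFAD replicate 3 alone, the library without a GC trend, the fold change was -0.55 (SE 0.08). The call was lost in edgeR without 5xFAD replicate 1 (adjusted p = 0.213) and without WT replicate 1, 2 or 3 (adjusted p = 0.287, 0.179 and 0.162), while the fold change stayed between -0.59 and -0.49. It held without 5xFAD replicate 2 (adjusted p = 0.0126) and without 5xFAD replicate 3 (adjusted p = 0.0178). The latter fit kept only the 2 5xFAD libraries with the GC trend, and 3229 of 14103 genes passed in it.

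Mpped1 encodes a metallophosphoesterase domain protein of brain. The gene has 7 exons on chromosome 15 (ENSMUSG00000041708, 83779467 to 83858494, plus strand). Mpped1 had 200, 188 and 210 CPM in 5xFAD, against 282, 270 and 278 CPM in WT. It was the least variable CA1 marker in either group, with a coefficient of variation of 5.74% in 5xFAD and 2.17% in WT. Mpped1 fell by 0.47 on the log2 scale (SE 0.08, edgeR adjusted p = 0.0444), which is 28.0% less than WT in mean CPM. With 5xFAD replicate 3 alone the fold change was -0.38 (SE 0.05). Mpped1 also passed with the GC and length term (-0.34, SE 0.06, edgeR adjusted p = 0.0367). It was the only member past the threshold in the fit of all libraries both with and without the term. The call was lost in edgeR without 5xFAD replicate 1 (adjusted p = 0.388) and without WT replicate 1, 2 or 3 (adjusted p = 0.319, 0.187 and 0.164), at fold changes of -0.49 to -0.46. Mpped1 and Pou3f1 held ranks 97 and 90 by adjusted p among the genes tested.

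Nov, named Ccn3 in GENCODE M21, encodes a secreted matricellular protein of the CCN family. It has 5 exons on chromosome 15 (ENSMUSG00000037362, 54745702 to 54754039, plus strand). Nov had 139, 168 and 111 CPM in 5xFAD, against 179, 184 and 165 CPM in WT. The groups overlapped because 5xFAD replicate 2 lay above the lowest WT library. The log2 fold change of -0.34 (SE 0.15) did not pass with all libraries (edgeR adjusted p = 0.262). Under the GC and length term Nov had 131, 143 and 115 CPM in 5xFAD, against 190, 196 and 176 CPM in WT, with no overlap, and it passed (-0.53, SE 0.09, adjusted p = 0.0312). It also passed without 5xFAD replicate 2 (-0.49, edgeR adjusted p = 0.0364), and with 5xFAD replicate 3 alone the fold change was -0.65 (SE 0.07). Without 5xFAD replicate 3 it was -0.20 (adjusted p = 0.161), and the other 4 leave-one-out fits did not pass either (adjusted p = 0.388 to 0.523).

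Spink8 belongs to the Kazal-type serine protease inhibitors. It has 5 exons on chromosome 9 (ENSMUSG00000050074, 109812280 to 109826633, plus strand). Spink8 had 7.65, 9.01 and 8.37 CPM in 5xFAD, against 12.4, 12.2 and 11.2 CPM in WT, from 162, 161 and 206 reads in 5xFAD and 279, 263 and 246 reads in WT. Both groups were tight and did not overlap. With all libraries the log2 fold change of -0.52 (SE 0.13) did not pass (edgeR adjusted p = 0.144). The GC and length term gave -0.66 (SE 0.11, edgeR adjusted p = 0.0376), which passed, and 5xFAD replicate 3 alone gave -0.50 (SE 0.15). Spink8 also passed without 5xFAD replicate 3 (-0.52, adjusted p = 0.0385), a fit of the 2 libraries with the GC trend in which 3229 of 14103 genes passed. The other 5 leave-one-out fits did not pass (edgeR adjusted p = 0.0738 to 0.514).

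Fibcd1 encodes a membrane receptor with a fibrinogen C domain that binds acetylated groups, chitin among them. Its 7 exons lie on chromosome 2 (ENSMUSG00000026841, 31813290 to 31846005, minus strand). Fibcd1 had 109, 70.2 and 137 CPM in 5xFAD, against 166, 188 and 167 CPM in WT. All 3 5xFAD libraries were below WT, and 5xFAD replicate 2 was the lowest by far. Its log2 fold change was the lowest of the members, -0.72 (SE 0.21), and did not pass (edgeR adjusted p = 0.203). The size depended on the libraries used. It was -0.49 without 5xFAD replicate 2 (edgeR adjusted p = 0.0492) and -0.95 without 5xFAD replicate 3 (adjusted p = 0.0169). Under the GC and length term it was -0.42 (SE 0.10, adjusted p = 0.0937), and with 5xFAD replicate 3 alone -0.33 (SE 0.08). The other 4 leave-one-out fits did not pass (edgeR adjusted p = 0.329 to 0.523). The fit without 5xFAD replicate 3 kept only the 2 5xFAD libraries with the GC trend, and 3229 of 14103 genes passed in it.

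Wfs1 encodes wolframin, a membrane glycoprotein of the endoplasmic reticulum and a widely used CA1 marker. It has 8 exons on chromosome 5 (ENSMUSG00000039474, 36966104 to 36989205, minus strand). Wfs1 had 114, 133 and 87.0 CPM in 5xFAD, against 137, 113 and 162 CPM in WT. It was the most variable CA1 marker in WT, with a coefficient of variation of 17.8%, and the groups overlapped. The log2 fold change was -0.31 (SE 0.18, edgeR adjusted p = 0.342). The sign turned under the GC and length term (0.02, SE 0.26, edgeR adjusted p = 0.969), and the fold change was -0.64 (SE 0.17) with 5xFAD replicate 3 alone.

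The CA3 markers differed from one another in direction and in spread. Cpne4 encodes a copine, a calcium-dependent phospholipid-binding protein. Its 16 exons lie on chromosome 9 (ENSMUSG00000032564, 104547286 to 105034544, plus strand), with a miRNA gene, Gm23391, sharing 104 bases on the same strand. Cpne4 had 167, 179 and 162 CPM in 5xFAD, against 141, 144 and 148 CPM in WT. It was the only member whose 5xFAD libraries all lay above WT, by 17.3% in mean CPM. The log2 fold change was 0.23 (SE 0.08) with all libraries and 0.18 (SE 0.06) with 5xFAD replicate 3 alone. Cpne4 did not pass with all libraries (edgeR adjusted p = 0.225) or with the GC and length term (0.11, SE 0.05, adjusted p = 0.308). It passed without 5xFAD replicate 3 (0.26, adjusted p = 0.0424), a fit of the 2 libraries with the GC trend in which 3229 of 14103 genes passed. Cpne4 passed in none of the other 5 leave-one-out fits (edgeR adjusted p = 0.195 to 0.523).

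Bok encodes a pro-apoptotic member of the BCL-2 family. It has 5 exons on chromosome 1 (ENSMUSG00000026278, 93685660 to 93695764, plus strand). Bok had 24.8, 9.46 and 38.6 CPM in 5xFAD, against 31.8, 32.0 and 33.2 CPM in WT, from 525, 169 and 950 reads in 5xFAD and 716, 691 and 726 reads in WT. The WT libraries were nearly alike, while 5xFAD replicate 2 was far below them and 5xFAD replicate 3 above them, a coefficient of variation of 60.0% in 5xFAD and 2.23% in WT. Over all libraries the fold change was -0.40 on the log2 scale (SE 0.40, edgeR adjusted p = 0.543). It was -0.02 without 5xFAD replicate 2 (adjusted p = 0.962), -0.91 without 5xFAD replicate 3 (adjusted p = 0.0597) and 0.27 with 5xFAD replicate 3 alone. In 5xFAD replicate 2 Bok deviated from the WT mean by -1.77 on the log2 scale, of which the GC and length term accounted for -0.71. No direction can be given for Bok from these libraries.

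Iyd encodes iodotyrosine deiodinase, known for iodide salvage in the thyroid. It has 5 exons on chromosome 10 (ENSMUSG00000019762, 3540240 to 3554877, plus strand). Iyd had 3.59, 2.13 and 3.21 CPM in 5xFAD, against 3.20, 3.71 and 2.88 CPM in WT. These rest on 76, 38 and 79 reads in 5xFAD and 72, 80 and 63 reads in WT, the fewest of any member. The groups overlapped, and the log2 fold change was -0.13 (SE 0.25, edgeR adjusted p = 0.765), and 0.06 without 5xFAD replicate 2 (adjusted p = 0.911). No difference in Iyd beyond the spread of the libraries was found.

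**Figure D2:**
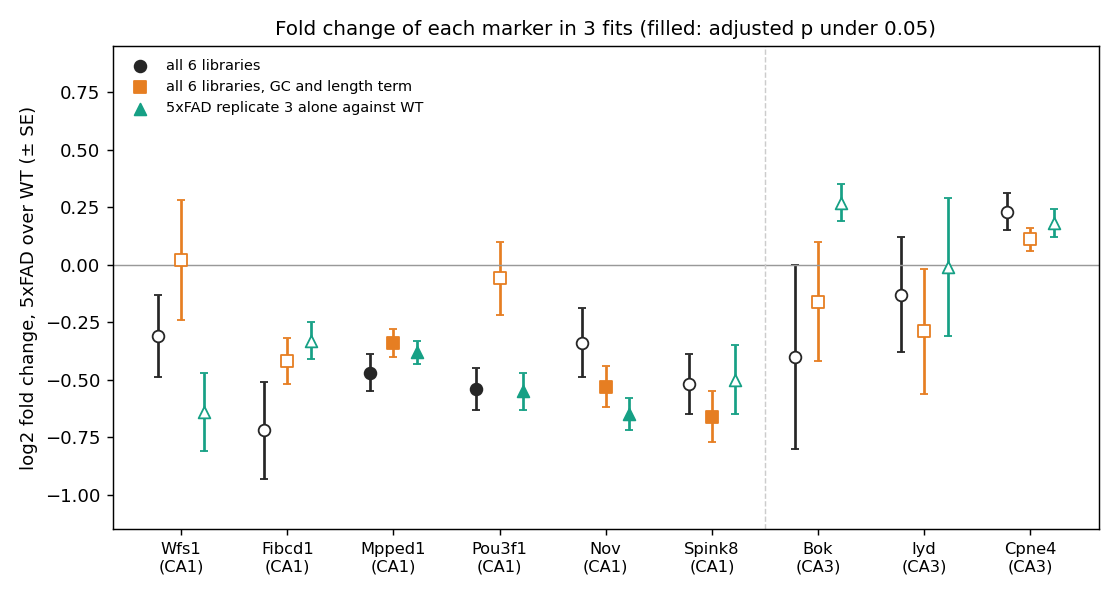
Log2 fold change of each marker, 5xFAD over WT, with its SE, in the fit of all 6 libraries, the fit with the GC and length term, and 5xFAD replicate 3 alone against the 3 WT libraries. Filled symbols had an adjusted p under 0.05. In the fits of all 6 libraries Mpped1 passed with and without the term. Pou3f1 passed only without the term, being at -0.06 with it, and Nov and Spink8 passed only with it. The fit of 5xFAD replicate 3 alone rests on WT spread, so its filled symbols are not read as calls.

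The GC trend did not weigh on the members alike. For Pou3f1 the deviation from the WT mean on the log2 scale was -0.43, -0.63 and -0.56 in 5xFAD replicates 1 to 3, and the term fitted to all genes came to -0.38, -0.91 and -0.09. In 5xFAD replicates 1 and 2 the term was thus about as large as the deviation or larger, and in 5xFAD replicate 3 it was small beside it. For Nov the deviation was -0.34, -0.07 and -0.67, and the term was 0.18, 0.32 and 0.03, of the opposite sign. Spink8, with deviations of -0.64, -0.41 and -0.51, likewise had a term above 0 (0.15, 0.26 and 0.02). Mpped1 kept -0.36, -0.28 and -0.39 after the term, the most even of the CA1 markers. With the term 3 members passed, Mpped1, Nov and Spink8, all lower in 5xFAD, against 0.201% of all genes, and the groups did not overlap for 4 members lower in 5xFAD, against 14.1% of all genes. In 5xFAD replicate 3, whose counts carried almost no GC trend, each of the 6 CA1 markers was below every WT library. This sets 1 library against 3, and the share of all genes below every WT library there was not taken. The median over the CA1 markers was -0.38 with the term and -0.52 with 5xFAD replicate 3 alone. That over the CA3 markers was -0.16 with the term and 0.18 with 5xFAD replicate 3 alone.

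**Figure D3:**
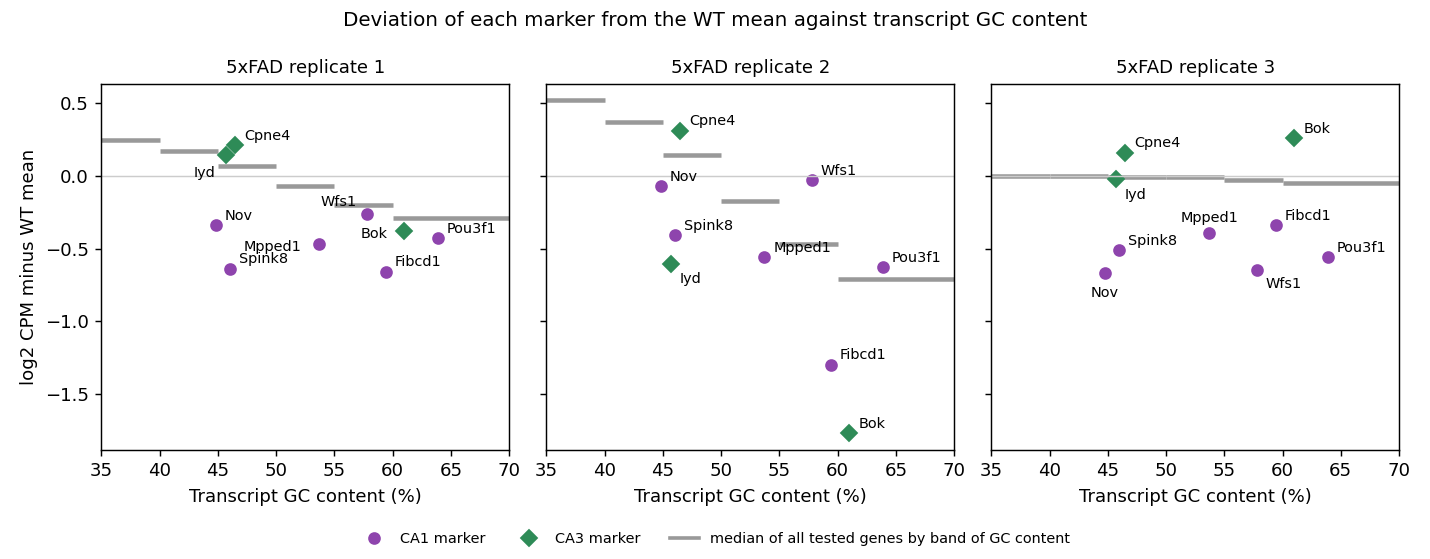
Deviation of each marker from the WT mean on the log2 scale (vertical axis) against transcript GC content in percent (horizontal axis), in each 5xFAD library. Grey lines are medians of all tested genes in bands of GC content, which go down from 0.52 to -0.71 in 5xFAD replicate 2 and stay within 0.05 of 0 in 5xFAD replicate 3. In 5xFAD replicate 3 all 6 CA1 markers lie below the grey line, from -0.67 to -0.34.

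Markers of other hippocampal fields and of tissue beside the hippocampus were set next to the members, since the share of each field in a dissected piece can differ. The 11 dentate granule cell genes had a summed level of 563, 594 and 588 CPM in 5xFAD, against 385, 264 and 492 CPM in WT. WT replicate 2 was lowest, and the WT libraries varied more than the 5xFAD libraries. All 11 had a fold change above 0, with a median of 0.66. For 8 the groups did not overlap, against 13.2% of all genes higher without overlap. None passed edgeR's quasi-likelihood test, 7 reached an unadjusted p under 0.05, and 4 were called higher by DESeq2 and by the edgeR exact test. Of all 13937 genes, DESeq2 called 331 higher and the exact test 362. Stxbp6, with the highest CPM of them, which encodes a SNARE-binding protein, had 181, 216 and 161 CPM in 5xFAD, against 115, 92.3 and 141 CPM in WT (log2 fold change 0.68, SE 0.17, edgeR adjusted p = 0.155). The mean log2 level of the CA1 markers minus that of the dentate genes was 1.13, 1.11 and 0.95 in 5xFAD, against 2.13, 2.68 and 1.78 in WT. The groups did not overlap, with a mean difference of -1.13, and the difference was -0.99 with the GC and length term. The CA1 mean was lower and the dentate mean higher in every 5xFAD library than in every WT library. The lack of overlap followed from that and adds no support. Within WT alone the CA1 mean minus the dentate mean spanned 1.78 to 2.68. As mean log2 levels about their WT means, the dentate genes spanned -0.48 to 0.42 in WT and the CA1 markers -0.02 to 0.01. Single CA1 markers varied more, with Wfs1 at 137, 113 and 162 CPM in WT replicates 1 to 3. The part of field or dissection shares in the CA1 difference was not tested.

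Other pyramidal and excitatory neuron genes gave no call by the quasi-likelihood test. Of 9 further pyramidal genes 1 had an unadjusted p under 0.05 and 1 was called higher by DESeq2, with a median of 0.10 over the list, and Dkk3, a secreted Wnt-pathway glycoprotein with the highest CPM of them, had 415, 437 and 388 CPM in 5xFAD, against 407, 408 and 420 CPM in WT. Of 6 CA2 genes 1 had an unadjusted p under 0.05 and none was called by any tool (median -0.04), among them Rgs14, a regulator of G-protein signalling, at 69.2, 50.0 and 84.7 CPM in 5xFAD, against 74.0, 73.4 and 74.0 CPM in WT. Of 7 genes of excitatory neurons in general 1 had an unadjusted p under 0.05 and none was called by any tool (median -0.02, but 0.22 with the GC and length term), and Camk2a, a calcium-dependent kinase subunit, had 5860, 5530 and 6190 CPM in 5xFAD, against 5860, 5630 and 6050 CPM in WT. Camk2a differed between the groups by less than the spread of the libraries, at a fold change of 0.00 on the log2 scale (SE 0.07), and of 0.13 with the term (edgeR adjusted p = 0.293). With the term, the mean of the excitatory list lay above WT by 0.17, 0.34 and 0.10 in 5xFAD replicates 1 to 3. Of 18 paralogs of the members 15 were tested and none passed (4 at an unadjusted p under 0.05, 0 called by DESeq2 and 1 higher by the exact test, median -0.04), the one with the highest CPM being Cpne6, another copine, at 745, 562 and 879 CPM in 5xFAD, against 805, 783 and 829 CPM in WT.

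For tissue at the edge of the hippocampus none of the listed genes passed the quasi-likelihood test. The 8 genes of subiculum and deep cortex had a median of -0.38 (-0.21 with the GC and length term), with 4 at an unadjusted p under 0.05 and 2 called lower by DESeq2 and by the exact test. Fn1, fibronectin, with the highest CPM of them, had 94.8, 90.1 and 93.3 CPM in 5xFAD, against 131, 112 and 141 CPM in WT. The 9 thalamus and striatum genes tested all had a fold change below 0 (median -0.36, or -0.24 with the term, 3 at an unadjusted p under 0.05, 0 called by the other tools), with a summed level of 74.4 to 76.3 CPM in 5xFAD and 85.5 to 96.8 CPM in WT. Prkcd, a protein kinase C with the highest CPM of these, had 25.9, 21.0 and 28.8 CPM in 5xFAD, against 28.1, 33.1 and 23.7 CPM in WT. The 8 choroid plexus genes had a median of 0.38 (0.44 with the term, 3 at an unadjusted p under 0.05, 1 called higher by DESeq2 and 2 by the exact test) and summed levels of 209 to 478 CPM in 5xFAD, against 129 to 143 CPM in WT. Ttr, transthyretin, which made up most of that sum, had 267, 413 and 160 CPM in 5xFAD, against 79.7, 81.1 and 91.6 CPM in WT (edgeR adjusted p = 0.0586). It passed with the term, at a fold change of 1.55 on the log2 scale (edgeR adjusted p = 0.0252). No gene of these lists was at 0 in every library, and their part in the CA1 difference was not tested.

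Of the non-pyramidal cell types, glial genes rose in part. By the quasi-likelihood test 93 of all 13937 genes rose. Among 7 microglia genes tested 3 rose, including Cx3cr1, the fractalkine receptor (log2 fold change 0.60, SE 0.09, edgeR adjusted p = 0.0404), and P2ry12, a purinergic receptor (0.87, SE 0.14, adjusted p = 0.0423). Of 6 astrocyte genes 2 rose, Gfap, an intermediate filament protein (1.34, SE 0.08, adjusted p = 0.000478), and Aqp4, a water channel (0.64, SE 0.10, adjusted p = 0.0372), while Slc1a2, a glutamate transporter with the highest CPM of the list, was at 0.29 (SE 0.10, adjusted p = 0.236). None of 8 interneuron genes passed (3 at an unadjusted p under 0.05, 2 called lower by DESeq2 and by the exact test, median -0.23), with the GABA-producing enzyme Gad1 at 351, 373 and 315 CPM in 5xFAD, against 400, 432 and 362 CPM in WT. None of 6 oligodendrocyte genes passed (4 at an unadjusted p under 0.05, 4 called lower by DESeq2 and by the exact test, median -0.45), with the myelin protein Mbp at 2870, 2530 and 3130 CPM in 5xFAD, against 3740, 4170 and 3470 CPM in WT. Mbp was among 4 oligodendrocyte genes that were lower in every 5xFAD library than in every WT library, against 15.1% of all genes. With the GC and length term 1 of the 6 fell, the myelin glycoprotein gene Mog (-0.53, edgeR adjusted p = 0.0279), named here after its value was seen. None of 5 endothelial genes passed (1 at an unadjusted p under 0.05, 0 called by the other tools, median -0.24), with the receptor Flt1 at 87.8, 84.4 and 92.5 CPM in 5xFAD, against 103, 88.7 and 99.6 CPM in WT.

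**Figure D4:**
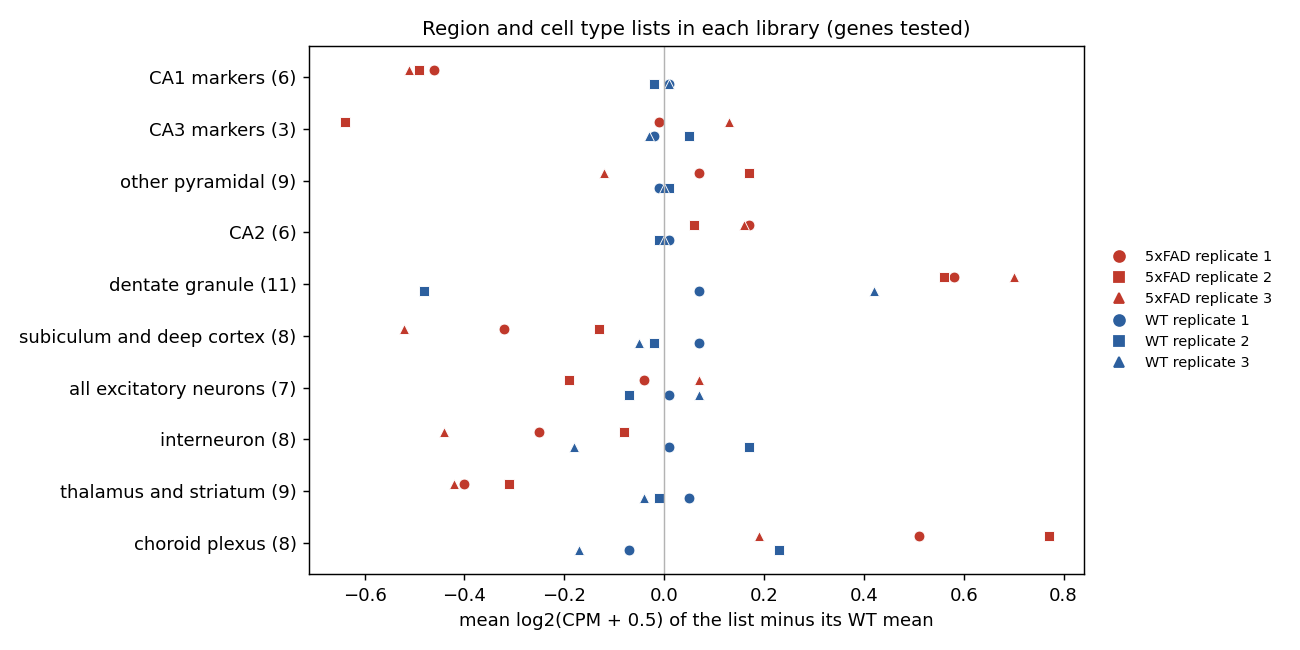
Mean of log2(CPM + 0.5) over the tested genes of each list in each library, minus the WT mean of that list (horizontal axis), with the number of genes in parentheses. The CA1 markers lie at -0.51 to -0.46 in 5xFAD and -0.02 to 0.01 in WT, the dentate granule genes at 0.56 to 0.70 in 5xFAD and -0.48 to 0.42 in WT, and the CA3 markers of 5xFAD replicate 2 at -0.64.

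Set against Cpne4, whose own level was higher in 5xFAD by 0.23 on the log2 scale, the mean log2 level of the CA1 markers minus the log2 level of Cpne4 was -1.23, -1.36 and -1.23 in 5xFAD, against -0.51, -0.57 and -0.57 in WT, a mean difference of -0.73. It was -0.46 with the GC and length term, again without overlap. The CA1 mean was lower and Cpne4 higher in every 5xFAD library than in every WT library, with and without the term. The lack of overlap followed from that and adds no support. The mean log2 level of the CA1 markers minus that of all 3 CA3 markers, by contrast, was 1.54, 2.18 and 1.34 in 5xFAD, against 2.03, 1.91 and 2.04 in WT, and the groups overlapped through 5xFAD replicate 2.

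Likeness in pattern was measured as the root mean square distance between centred log2 CPM values over the 6 libraries, among 9431 tested genes with a mean of at least 10 CPM. Rasd1, a Ras-related GTPase, was nearest to Mpped1 (0.0406) and to Pou3f1 (0.0712), and those markers were each other's nearest member (0.0715). Nrarp (0.0432) and Pcnxl2 (0.0493) came next for Mpped1, and Syt2, a synaptotagmin (0.0762), for Pou3f1 after Mpped1. Nearest to Fibcd1 were Podxl2 (0.0418), Rhbdl3 (0.0504) and Chchd2 (0.0681). For Nov they were the glutamate receptor gene Grm4 (0.0577), Far2 (0.0588) and Cadps2 (0.0658). Spink8 lay closest to Rffl (0.0283), Gli3 (0.0485) and Hunk (0.0603), and Cpne4 to Klhl42 (0.0188), Cc2d2a (0.0201) and Fam50a (0.0212). For Wfs1 they were Apod (0.105), Dusp1 (0.108) and Gm6793 (0.121), for Bok Ccdc120 (0.0811), Ccdc85b (0.125) and Tst (0.139), and for Iyd Nhlrc1 (0.0705), Vav2 (0.0758) and Bysl (0.0837). The nearest member to Spink8 was Mpped1 (0.109), to Nov it was Spink8 (0.173), to Wfs1 it was Nov (0.197) and to Fibcd1 it was Mpped1 (0.286). For the CA3 markers it was Mpped1 for Iyd (0.256), Iyd for Cpne4 (0.311) and Fibcd1 for Bok (0.318). Within each set some markers thus lay far from the others, and the names CA1 and CA3 marker rest on known expression and not on these data.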

How the data were processed

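Per the labels and the study's methods, the authors removed adapters (cutadapt 1.9.3), mapped reads to mm10 (HISAT2 2.0.4), obtained gene counts (HTSeq 0.9.1) and tested groups (edgeR 3.16.5). The sources used here give no annotation release or strand setting, and the methods are not uniform on sex, which was not analysed. The deposited raw counts were used, and 6 columns of values normalized by the authors were not. Groups came from sample titles.

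The analysis used edgeR 4.0.16 in R 4.3.3 (TMM, filterByExpr with a minimum count of 10, quasi-likelihood test, two-sided, Benjamini-Hochberg, threshold 0.05, no block). Reads carry no molecular identifiers, so counts are not counts of independent molecules. GC content and length came from GENCODE M21 and were available for 98.3% of tested genes. For the GC and length term, natural splines (4 degrees of freedom) were fitted in each library and entered as offsets. The steps were tested on simulated counts. DESeq2 1.42.0, voom in limma 3.58.1, the edgeR exact test, other scalings and filters, a replicate block and leave-one-out fits were alternatives. Members, the 15 lists and the fits were chosen with earlier results of these data known. Named genes are the 9 members, of each other list up to 4 past the threshold and the one with the highest CPM, and the 3 genes nearest in pattern to each member. Some items that this rule takes are not reported here. Nectin3 and Drd1 matched no gene name.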

Additional observations from a re-analysis of the deposited data

How the results depend on the processing

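The number of members called was 2 with all libraries. It was 0 with library totals, 1 with the GC and length term and the replicate block, 4 with DESeq2 and 4 with the edgeR exact test, and 0 to 5 when 1 library was left out. The number of genes called was 106, against 69 with library totals, 507 with DESeq2, 567 with the edgeR exact test, 176 with the GC and length term, and 12 to 3229 when 1 library was left out. Without 5xFAD replicate 3 the 3229 genes held 5 members, and without any 1 WT library or 5xFAD replicate 1 no member passed. Same-numbered samples shared no visible deviation, with correlations of -0.017, -0.018 and -0.024. The GC trend of 5xFAD replicates 1 and 2 enters these deviations, so the correlations cannot settle whether the samples were paired. With the replicate block 20 genes and 0 members passed. The fold change changed sign for Wfs1 with the GC and length term (0.02), for Bok with 5xFAD replicate 3 alone (0.27) and for Iyd without 5xFAD replicate 2 (0.06; from -0.27 to 0.06 when 1 library was left out). The 5xFAD minus WT difference of the summed CA1 markers was -233 CPM, against -252 CPM with library totals and -157 CPM with the GC and length term. That of the CA3 markers was 16.7 CPM, against 8.20 CPM with the term. The cause of these changes was not tested. Counts of 38 to 80 reads limit Iyd, and those of 3 libraries a group limit every member.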
